A study of Saccharomyces cerevisiae with 6 samples.

Results

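The 6 genes described here are the fatty acyl-CoA synthetases FAA1, FAA2, FAA3, FAA4 and FAT1 and the acyl-CoA thioesterase TES1 of the yeast *Saccharomyces cerevisiae*. They were taken by name from a table of read counts for 6400 genes, in which all 6 have a row, and all 6 were among the 6129 genes that passed the filter on low counts. The table holds 3 RNA-seq libraries of the evolved strain CX01F and 3 of its parent CX01, and the series asks how metabolism was rearranged as cells adapted to methanol. Cells of both strains went from YPD, a rich medium, into glucose-based Delft minimal medium for 16 h and then into Delft medium with 1% methanol in place of glucose, and were collected near an OD600 of 1.0 from flasks shaken at 200 rpm and 30 °C. CX01F and CX01 share one genotype label. It names P. Paox1-SKL and P. Pdas1-skl, where SKL is the tripeptide signal for import into peroxisomes, together with P. pDAK, B. mMDH3-skl and also B. mACT1-skl, then P. pPYC and the set P. sXR with P. sXDH and P. sXK. PEX5, S.c MDH2, S. cMDH3 and S. Cnde1 are listed as well, beside the deletions ∆PEX31 and ∆PEX32. The labels do not say what distinguishes the genome of CX01F, whether it is 1 clone, or which batch a library belongs to, so batch or handling and strain cannot be told apart.

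A free fatty acid enters metabolism only after it is joined to coenzyme A, a step that spends ATP and is catalysed by acyl-CoA synthetases. The activated acyl-CoA can be built into membrane and storage lipids, attached to proteins, elongated, or broken down by beta-oxidation, which in yeast takes place in peroxisomes. Faa1 and Faa4 are the main synthetases for long-chain fatty acids taken up from outside or released inside the cell, Faa3 also acts on long chains, and Fat1 activates very long chains and takes part in fatty acid uptake. Faa2 works inside the peroxisome, mainly on medium chains, with ATP brought in by the carrier Ant1. Tes1 is a peroxisomal thioesterase that frees the fatty acid from coenzyme A.

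FAA1 and FAA4 were lower in CX01F, FAA2, FAT1 and TES1 were higher, and FAA3 did not pass the test. Library totals ranged from 51537969 to 63183824 counts, so that 3 counts, the limit that a count of 0 allows, came to at most 0.0582 CPM (the count scaled to a fixed library total of 1e+06), and this covers counting error only. Libraries of one strain correlated at 0.998 to 0.999 over the genes' log2 CPM, and libraries of different strains at 0.882 to 0.887. PEX31, labelled as deleted, had 0 or 1 count in every CX01F library and 0 in every CX01 library, whereas PEX32, the other labelled deletion, gave 167 to 230 counts in CX01F and 219 to 279 in CX01. PEX5 was lower in CX01F (log2 change -0.24, SE 0.026, edgeR adjusted p = 4.88e-07). A gene was called at a Benjamini-Hochberg adjusted p under 0.05 in edgeR's quasi-likelihood test, with changes given as CX01F minus CX01. Of all tested genes 91.4% were called by this test, 45.5% higher and 45.9% lower, and for 91.9% the libraries of the strains did not overlap. The 5 called genes out of 6, and the 5 of 6 without overlap, are therefore close to the background. The directions, 3 higher and 2 lower, do not stand out from it either. By size, 2.27% of tested genes had a larger absolute change than FAA1. For FAA4 this share was 29.9%, for FAA2 34.2%, for TES1 40.5%, for FAT1 45.9% and for FAA3 96.8%. Only the size of FAA1 was thus unusual among all tested genes. RNA came from whole cultures, so less transcript per cell and fewer expressing cells cannot be told apart.

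The coding sequences were compared first, because FAA1, FAA3 and FAA4 are related and the counting of reads that match several places is not given in the sources used here. In the RefSeq R64 reference, FAA3 and FAA4 had 76.5% identical bases over 2085 aligned positions, FAA1 and FAA4 had 64.8%, FAA1 and FAA3 had 64.8%, and FAA1 and FAA2 had 53.9%. The longest uninterrupted stretch shared by any pair was one of 35 bases in FAA3 and FAA4, and the longest shared by FAA1 and FAA4 was one of 23 bases. FAA2 shared a longer stretch than that, one of 24 bases, with FAA3 and also with FAA4. The stretches of 35 and 23 bases are given with the R64 positions of the first gene of each pair, on the plus strand.
FAA3 and FAA4, coding bases 475 to 509 of both, chrIX:339818-339852 in FAA3: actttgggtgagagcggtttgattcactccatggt
FAA1 and FAA4, coding bases 1099 to 1121 of both, chrXV:910441-910463 in FAA1: gtttgggaaacagtgagaaaagg
No 50-base window of any of the 6 coding sequences occurred a second time in the R64 genome. Reads of that length or longer that match exactly within these genes therefore have 1 place to go. The build the authors used is not given, and the coordinates here are those of R64.

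FAA1 showed the largest difference of the family. It stood at 214, 216 and 216 CPM in the CX01F libraries, against 1646, 1671 and 1757 CPM in the CX01 libraries. All 3 CX01F libraries lay far below all 3 CX01 libraries, and the spread within a strain was small beside the gap. The level was 7.86-fold lower in CX01F (log2 change -2.97, SE 0.0317, edgeR adjusted p = 4.66e-18), and 2.27% of tested genes had a larger absolute change.

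FAA4, the other long-chain synthetase of the cytosol and endoplasmic reticulum, fell less. It had 799, 816 and 787 CPM in CX01F and 1593, 1658 and 1612 CPM in CX01. The 3 CX01F libraries were all below the 3 CX01 libraries, at a level 2.02-fold lower (log2 change -1.02, SE 0.028, edgeR adjusted p = 6.73e-14). Of all tested genes, 30.6% were called with a change of at least 2-fold in either direction, and of the 6 genes FAA1 and FAA4 were.

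FAA3 was the member with the lowest level per length in both strains. It had 49.6, 53.8 and 52 CPM in CX01F and 52.3, 50.8 and 49 CPM in CX01, so the strains overlapped. The difference did not pass the test (log2 change 0.03, SE 0.0376, edgeR adjusted p = 0.444), and 96.8% of tested genes had a larger absolute change. This near-zero value rests on the scaling of the libraries: with library size only, without the TMM factors that take the bulk of genes as unmoved, the log2 change was -0.18 (edgeR adjusted p = 0.000593), and without the genes of chromosomes XI and XV it was -0.08 (edgeR adjusted p = 0.0457). Scaling by library size shifts the median of all tested genes by -0.21, so relative to that shift FAA3 stayed near the middle.

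FAA2, the peroxisomal synthetase, was higher in CX01F. It had 459, 458 and 450 CPM in CX01F and 235, 250 and 244 CPM in CX01. No CX01F library came near a CX01 library, and the level was 1.88-fold higher in CX01F (log2 change 0.91, SE 0.0282, edgeR adjusted p = 2.73e-13). In R64 the FAA2 gene overlaps BUD25 on the opposite strand by 160 bases. BUD25 had 0 counts in every CX01F library and 0, 1 and 0 counts in the CX01 libraries, and how reads in the overlap were counted is not given in the sources used here.

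TES1, which acts in the opposite sense in the same organelle, was also higher in CX01F. It had 177, 183 and 183 CPM in CX01F and 107, 107 and 104 CPM in CX01. The strains did not overlap, and the level was 1.71-fold higher in CX01F (log2 change 0.78, SE 0.0268, edgeR adjusted p = 9.8e-13).

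FAT1, the very-long-chain synthetase, had 87.7, 90.3 and 84.9 CPM in CX01F and 54.8, 57 and 52.6 CPM in CX01. Again all CX01F libraries were the higher ones. The level was 1.60-fold higher in CX01F (log2 change 0.68, SE 0.0355, edgeR adjusted p = 1.33e-10). The median log2 change of the 6 genes was 0.35, against -0.00 over all tested genes, and their median absolute log2 change was 0.84 against 0.60. With library size only, FAA2, TES1 and FAT1 kept log2 changes of 0.70, 0.57 and 0.47 and FAA1 and FAA4 had -3.18 and -1.23.

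**Figure D1:**
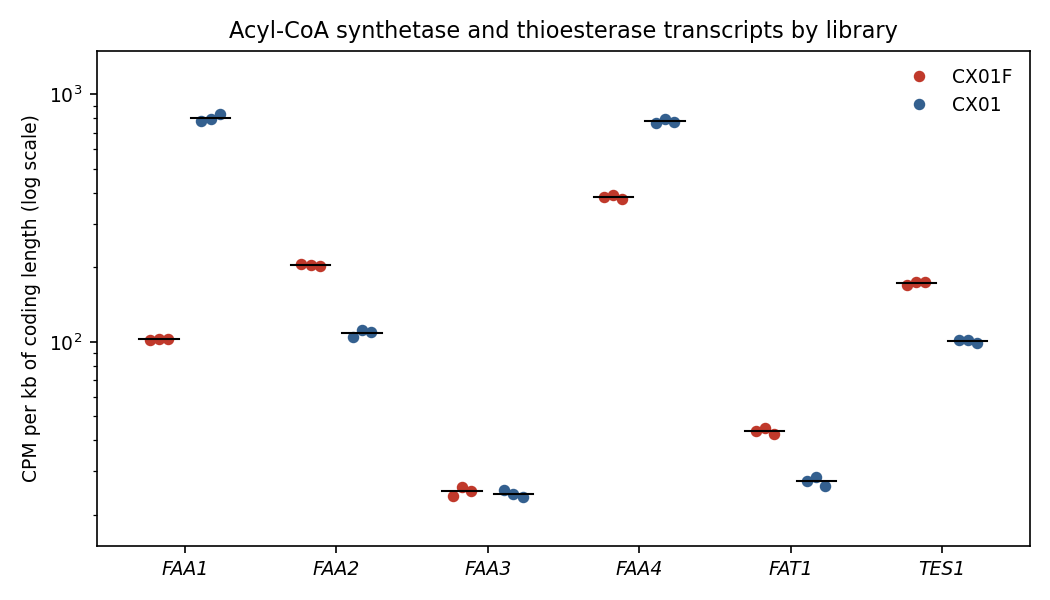
Level of each gene in CPM per kb of coding length (log scale) in the 3 CX01F libraries (red, left of each pair) and the 3 CX01 libraries (blue, right); points are libraries and black lines their means. FAA1 averaged 102 CPM per kb in CX01F against 804 in CX01, while the FAA3 points of the strains overlap.

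Levels of different genes were compared per kb of coding length, from the R64 annotation. In CX01F the order was FAA4 at 384 ± 6.9 CPM per kb, FAA2 at 204 ± 2.19, TES1 at 173 ± 3.17, FAA1 at 102 ± 0.677, FAT1 at 43.6 ± 1.36 and FAA3 at 24.9 ± 1.01 (SD, n = 3 libraries). In CX01 it was FAA1 at 804 ± 27.7 CPM per kb, FAA4 at 777 ± 15.9, FAA2 at 109 ± 3.39, TES1 at 101 ± 1.87, FAT1 at 27.3 ± 1.09 and FAA3 at 24.3 ± 0.787 (SD, n = 3 libraries). FAA1 thus held place 4 in CX01F and place 1 in CX01. Every gene in the CX01F order lay above the next without overlap of libraries. In CX01 the libraries of FAA1 and FAA4 overlapped, so these 2 did not differ beyond their spread, and all other neighbours in the order were apart.

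The make-up of the synthetase pool differed with these levels. In sum the 5 synthetases reached 759 ± 10.3 CPM per kb in CX01F and 1742 ± 33.6 in CX01 (SD, n = 3 each), which is 2.30-fold lower in CX01F. The exact two-sided permutation test gave p = 0.1, the smallest p that 3 against 3 libraries allow, here and for every share below, with an adjusted p of 0.1 over the 5 shares. FAA1 made up 13.5% ± 0.214 of the pool in CX01F and 46.2% ± 1 in CX01. FAA2 made up 26.9% ± 0.242 in CX01F and 6.23% ± 0.116 in CX01, so the peroxisomal enzyme had the second highest share in CX01F and the third in CX01. FAA4 held 50.6% ± 0.22 in CX01F and 44.6% ± 0.807 in CX01, a larger share of a smaller total. FAT1 had 5.74% ± 0.101 in CX01F and 1.57% ± 0.0741 in CX01, and FAA3 had 3.28% ± 0.116 in CX01F and 1.4% ± 0.0714 in CX01 (SD, n = 3 libraries each). No share overlapped between the strains, as was so for the levels of 91.9% of all tested genes. The 5 shares add up to the whole, so the lower share of FAA1 raises the others. FAA3 had the larger share in CX01F although its level was 24.9 CPM per kb there and 24.3 in CX01, with overlapping libraries. FAA1 and FAA4 together made up 64.1% ± 0.101 in CX01F and 90.8% ± 0.197 in CX01. These are shares of transcript, not of enzyme.

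The balance between FAA1 and FAA4 was read within each library, where it does not depend on the scaling. The log2 ratio of FAA1 to FAA4 was -1.92, -1.93 and -1.88 in CX01F and 0.04, -0.00 and 0.11 in CX01. FAA1 thus stood at 0.266 times the FAA4 level per kb in CX01F and at 1.03 times in CX01. The difference in log2 ratio was -1.96, with an exact two-sided permutation p of 0.1, again the smallest possible.

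**Figure D2:**
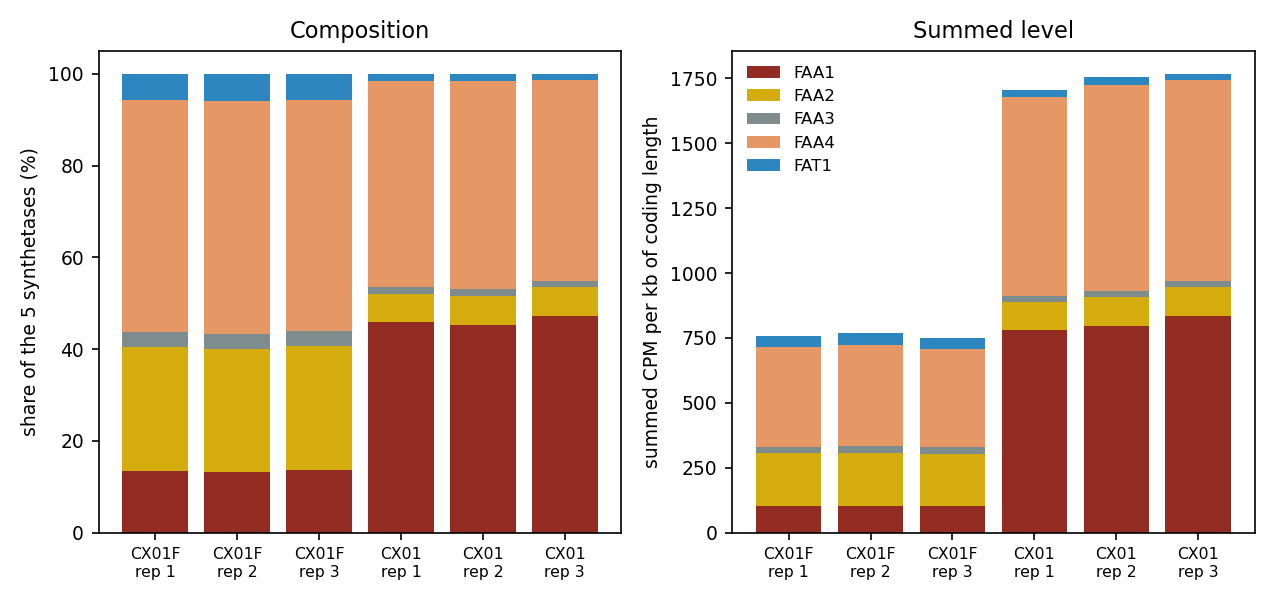
Left, share of each of the 5 synthetases in their summed CPM per kb of coding length, in percent; right, the same sum in CPM per kb, for the 3 CX01F and the 3 CX01 libraries. FAA1 (dark red) is 13.3% to 13.7% of the CX01F bars and 45.3% to 47.3% of the CX01 bars, and FAA2 (yellow) is 26.6% to 27.1% of the CX01F bars and 6.16% to 6.37% of the CX01 bars.

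The chromosome of each gene was set beside its change, because chromosomes XI and XV as a whole lay lower in CX01F than the others, with median log2 changes of -0.82 and -0.86 over their coding genes, of which 78.4% and 80.2% were called lower. FAA1 is on XV. Its log2 change was 2.11 below the chromosome's median, and 18 of the 536 tested coding genes of XV had a lower value. The 10 tested coding genes on each side of FAA1 had a median of -0.89 and ranged from -3.28 to 1.58, and 2 of these 20 were lower than FAA1. The lowest, YOR316C-A, singled out after its value was seen, is the next gene to FAA1, and whether reads were counted by strand is not given. FAA4 is on XIII, where the median was 0.03, and its log2 change was 1.05 below it. FAA2 on V, TES1 on X and FAT1 on II lay 0.73, 0.67 and 0.51 above the medians of their chromosomes, and FAA3 on IX lay 0.09 below. The 20 neighbours of FAT1 had a median of 0.90, higher than FAT1 itself at 0.68, whereas 16 of the 20 neighbours of FAA2 and 17 of those of TES1 were lower than the gene they flank. These counts are near the chromosome-wide shares: 77.3% of tested coding genes on V were lower than FAA2 and 78.2% on X lower than TES1. The part of the chromosome-wide difference in the FAA1 value was not tested.

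**Figure D3:**
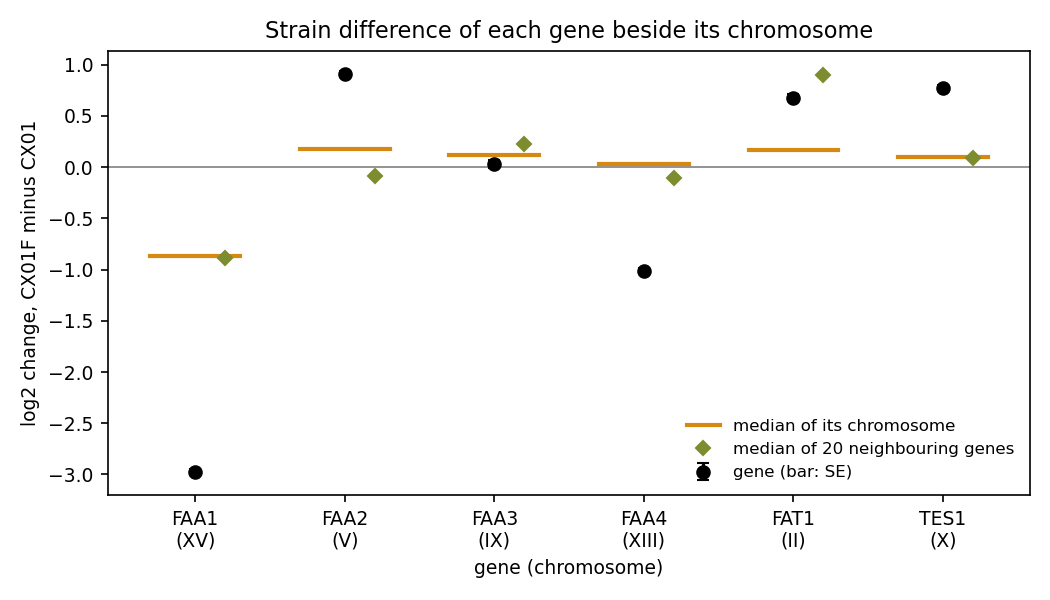
Log2 change (CX01F minus CX01) of each gene with its SE (black), the median of the tested coding genes of its chromosome (orange line) and the median of its 20 nearest tested coding genes (green diamond); SE bars are smaller than the points. FAA1 at -2.97 lies below both medians (-0.86 and -0.89), and FAT1 at 0.68 lies below the median of its neighbours (0.90).

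Genes that handle the products in the peroxisome were mixed, and all 12 of the list were called, 4 higher and 8 lower (3 and 8 with library size only), with a median log2 change of -0.23. On XI and XV 3 were lower and 1 higher of 4. Elsewhere 5 were lower and 3 higher of 8, with a median of -0.12. ANT1, the carrier that supplies peroxisomal ATP to Faa2, was 4.33-fold higher, with 190 ± 3.47 CPM in CX01F against 43.8 ± 1.21 CPM in CX01 (SD, n = 3 each, log2 change 2.11, SE 0.0299, edgeR adjusted p = 5.01e-17). Pxa1 and Pxa2 form the transporter that brings long-chain acyl-CoA made outside into the peroxisome, and both genes were lower in CX01F. PXA1, on XVI, had 255 ± 1.12 CPM in CX01F and 481 ± 19 in CX01 (log2 change -0.92), against a median of 0.08 for its chromosome. PXA2, on XI, had 210 ± 3.48 in CX01F and 355 ± 8.41 in CX01 (log2 change -0.76). The median of XI was -0.82, so PXA2 was not low for its chromosome. Of the beta-oxidation enzymes, POX1, the acyl-CoA oxidase, was at a log2 change of -0.11, FOX2, the multifunctional enzyme of the next steps, on XI, at -1.33 and POT1, the thiolase, at 0.86, all called.

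FAA2 and TES1 were the members with a match to the oleate response element, the DNA motif bound by the Oaf1-Pip2 activator of peroxisomal genes, within 500 bases before the start codon. The motif searched was CGG, then 15 to 18 bases of any kind, then CCG (CGGN15CCG to CGGN18CCG), which reads the same on both strands. It matched in 8.84% of the 6006 R64 coding genes with a full window. In the list of peroxisomal fatty acid oxidation 10 of 12 genes had a match, 3 of them higher and 7 lower in CX01F, so a match did not go with one direction. The sites are shown for both members and for POT1, whose log2 change was close to theirs, in the direction of the gene and with the outer triplets in capitals.
FAA2, chrV:184355-184377, plus strand, 186 to 164 bases before the start codon: CGGaccgtcagtctttaacgCCG
TES1, chrX:468389-468411, minus strand, 130 to 108 bases before the start codon: CGGaagagacggcataaacaCCG
POT1, chrIX:41610-41632, minus strand, 188 to 166 bases before the start codon: CGGggataatagtattaacaCCG
All 3 have a spacer of 17 bases. Both POX1 sites and the IDP3 site, of genes lower in CX01F, have it too. So do the sites of ECI1, PEX11 and ELO1, of genes higher in CX01F. In the oxidation list FOX2, DCI1, SPS19, PXA2 and CTA1, all lower, had matches with other spacers only. In other lists IFA38, ACS2 and PCS60, all higher, also had other spacers. Spacer and direction were compared after the values were seen, without a test. These are R64 letters, the strains' own sequence was not read, and a match is not evidence of binding. The genes for the activator itself, chosen after their values were seen, were lower in CX01F. OAF1 was at a log2 change of -0.32 and PIP2, on XV, at -0.85, close to the median of -0.86 of that chromosome. They come from a list of 9 regulators, 2 higher and 7 lower, so they do not stand apart from it.

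The list of fatty acid synthesis, elongation and desaturation had 7 higher and 3 lower of 10 (6 and 3 with library size only) and a median log2 change of 1.05. Its parts went different ways. All 6 genes of elongation in the endoplasmic reticulum (ELO1, ELO2, ELO3, IFA38, PHS1 and TSC13) were higher, beside 45.5% of all tested genes. On their chromosomes, II, III, IV, X and XII, 46.9% to 57.5% of tested coding genes were called higher. The elongation genes were set apart from the list after the values were seen. ELO3, which elongates very long chains, rose 6.34-fold (log2 change 2.67, SE 0.0416, edgeR adjusted p = 1.42e-16), ELO2, also an elongase, was at 1.77 and IFA38, the ketoacyl reductase of the same cycle, at 1.64. The other 4 genes, named after their values were seen, make the saturated chain and its double bond. ACC1, the acetyl-CoA carboxylase, was at -0.66, OLE1, the desaturase, at -0.30 and FAS1, a fatty acid synthase subunit on XI, at -1.53, all lower. FAS2, the partner subunit of FAS1, was higher at 0.17 but at -0.04 and not called with library size only (edgeR adjusted p = 0.295).

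Enzymes that use acyl-CoA to build lipids leaned lower, with 3 of 10 higher and 6 lower (2 and 7 with library size only) and a median of -0.46. DGA1, which makes triacylglycerol, was at a log2 change of -1.57, LAC1, a ceramide synthase, at -1.13 and GPT2, a glycerol-3-phosphate acyltransferase, at -0.92. Of the 3 higher genes, LAG1 was at 0.91, LIP1 at 0.30 and SLC1 at 0.16 (-0.05 and not called with library size only). DGA1, LAC1 and GPT2 are all on XI or XV. All 4 genes of this list on those chromosomes were lower, near the 78.4% and 80.2% of all coding genes there, and elsewhere 3 were higher and 2 lower of 6, with a median of 0.05. Lipases that free fatty acids for re-activation had 1 higher and 5 lower of 6, with a median of -0.66. On XI and XV 3 of 3 were lower, and elsewhere 2 were lower and 1 higher, with a median of -0.24. Among them the triacylglycerol lipase TGL4, on XI, was 4.16-fold lower (log2 change -2.06), TGL5, on XV, was at -0.96, and the steryl ester hydrolase YEH1 was 3.59-fold higher (1.84).

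ACB1, which binds and carries acyl-CoA in the cytosol, had 430 ± 6.27 CPM in CX01F and 278 ± 3.84 CPM in CX01 and was higher (1.55-fold, log2 change 0.63). NMT1, the myristoyl-CoA transferase that modifies proteins, was at 0.18 but at -0.03 with library size only, so its direction rests on the scaling, and at 0.07 and not called without the genes of XI and XV (edgeR adjusted p = 0.0681). All 4 genes of the other acyl-CoA enzymes were higher (3 higher and 1 lower with library size only), with a median of 1.99. ACH1, which transfers coenzyme A between short acids, was at 3.13, PCS60, a peroxisomal relative of the synthetases, at 2.30 and ACS2, an acetyl-CoA synthetase, at 1.69. Regulators of oleate and lipid genes had 2 higher and 7 lower of 9 (0 and 8 with library size only), with a median of -0.79. INO4, a subunit of the activator of phospholipid genes, was at -1.94, SPT23, an activator of the desaturase gene OLE1, at -1.73 and OAF3, a repressor of oleate genes, at -1.11. INO4, SPT23 and OAF3 are on XI or XV, where 4 of 4 regulators were lower, near the share of all coding genes there, and elsewhere 3 of 5 were lower. Each list stands beside a background in which 45.5% of genes were higher and 45.9% lower.

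**Figure D4:**
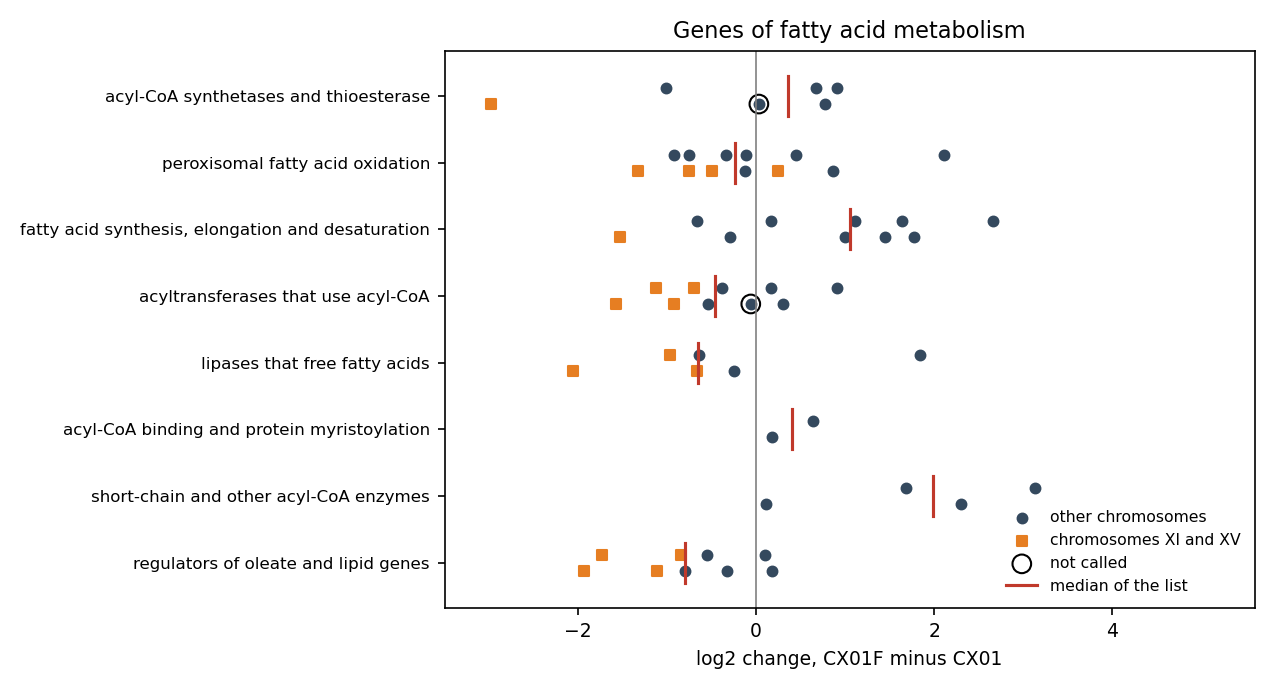
Log2 change (CX01F minus CX01) of every gene of the 8 lists, with genes on chromosomes XI and XV as orange squares, others as dark points, uncalled genes ringed and the list median in red. The 6 synthetase and thioesterase genes span -2.97 to 0.91, and 4 of 4 regulators on XI and XV lie below 0.

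The genes whose profiles were nearest to each member were found by the distance between log2 CPM values centred on each gene's mean over the 6 libraries. With 2 strains, this distance mostly compares the strain difference. FAA1 lay closest to GPX1, a glutathione peroxidase gene on XI (distance 0.0596, log2 change -2.97), and RTC3 (0.0983, -3.01). FAA4 lay closest to UFD4, a ubiquitin ligase gene also on XI (0.0236, -1.01), and YBL086C (0.0365, -1.01). FAA2 was nearest to RKM2 (0.0445) and ATP12 (0.0489), TES1 to NRP1 (0.0265) and YHL017W (0.0296), and FAT1 to NOP2 (0.0289) and GCD7 (0.0327). FAA3 was nearest to PET122 (0.0617) and to TRM10, on XV (0.0663), neither of which was called.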

How the data were processed

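RNA-seq libraries of 3 CX01F and 3 CX01 cultures, called biological replicates in the labels, were used. The values the authors deposited are raw counts of reads for each gene. Subread 1.4.6, featureCounts, TopHat2 2.0.12 and Cufflinks appear in the submitters' processing notes, with no role stated. Build, strand setting and treatment of multiply mapping reads are not given in the sources used here. One unnamed row took 0.00877% to 0.00916% of counts in CX01F and 0.0392% to 0.044% in CX01 and was left out.

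Counts were tested in R 4.3.3 with edgeR 4.0.16: filterByExpr (minimum count 10, minimum total 15), TMM scaling, and the two-sided quasi-likelihood test with strain as the only term, adjusted over 6129 genes. The SE is the log2 change divided by the square root of F. CPM use TMM-scaled library sizes. The steps were tested on simulated data. Alternatives used DESeq2 1.42.0, limma 3.58.1, other scalings, no filter, a replicate block and left-out libraries or chromosomes.

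Of 6400 names 6083 matched the RefSeq R64 gene table. Coding lengths, sequences and neighbours come from R64, and identities from Biopython 1.88 global alignments. The members and lists were chosen with earlier results of these data known. Beyond the 6 genes, the text names 8 direct partners, up to 3 called genes of largest change at 10 CPM or more per list, 3 genotype genes and the 2 nearest profiles per member. ELO1, PHS1, TSC13, ACC1, FAS1, FAS2, OLE1, LAG1, LIP1, SLC1, OAF1, PIP2, IDP3, ECI1, PEX11, DCI1, SPS19, CTA1 and YOR316C-A were named after their values were seen. BUD25 was named for its overlap with FAA2. P-values set the difference between the strains against the spread between the libraries of one strain. In the edgeR test this spread, and so the SE, is moderated with information from all tested genes. A gene's own 6 libraries leave only 4 residual degrees of freedom.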

Additional observations from a re-analysis of the deposited data

How the results depend on the processing

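Of 78 values of the 6 genes' log2 changes under 13 alternatives, 76 kept their direction and their side of the threshold. Both exceptions were FAA3, not called at 0.03, which reversed to -0.18 with library size only and to -0.085 without the genes of chromosomes XI and XV. Over the alternatives FAA1 ranged from -3.18 to -2.95, FAA4 from -1.23 to -1.002, FAA2 from 0.70 to 0.93, TES1 from 0.57 to 0.79 and FAT1 from 0.47 to 0.71. Library size only shifted the median of all genes by -0.207 and leaving out XI and XV by -0.116, which by construction moves every gene down. NMT1 reversed to -0.026 with library size only and lost its call at 0.066 without XI and XV. PET122 and TRM10, both near 0, reversed to -0.19 and -0.20 with library size only, PET122 also to -0.10 without XI and XV, and with 1 library left out they ranged from -0.0094 to 0.038 and from -0.0059 to 0.027. The genes called, 5603, ranged from 5501 to 5617 with 1 library left out. With library size only 2221 were higher and 3407 lower, against 2787 and 2816. PEX32, not called, became so under 4 alternatives. Shares, sum and ratio kept their direction without length correction and with each library left out, though their exact test cannot pass the threshold.

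A fit with a replicate block by number called 5619 genes, and again 3 of the 6 genes higher and 2 lower. Same-numbered deviations correlated at 0.0242, 0.0785 and 0.0207, too weakly to treat the numbers as pairs.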
